A study of Mus musculus with 18 samples.

Results

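Megakaryocytes, the bone marrow cells that shed platelets, share a progenitor with red cells, and the genes of platelet adhesion were followed here in a line that matures toward red cells. The set holds 7 genes chosen by name: Itgb3, Itga2b, Gp5, Gp9, Gp1ba, Pf4 and Vwf. Of these, 6 had a probe set that the platform annotation assigns to 1 gene, out of 18193 such genes, and Gp1ba, which had none under that symbol, was not analysed here. Low values were filtered out by asking for 3 or more arrays with a reading over the 40th percentile of that array, which left 5 members and 12719 genes in all. Vwf was the member that the filter removed.

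The samples were G1E-ER4 cells, a mouse erythroid line whose own Gata1 gene is disrupted and which carries GATA1 fused to the ligand-binding domain of an estrogen receptor, so that estradiol switches the factor on. Both features were shared by every group. Cells were harvested before estradiol (0 h) or after 3, 7, 14, 21 or 30 h in 20 nM estradiol, with 3 arrays per time and 18 in all. All groups came from 1 cell line, and the samples used here include no untreated culture of matching age, so hours in culture and hours in estradiol cannot be told apart.

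Platelets stop bleeding in steps that map onto these genes. Von Willebrand factor (Vwf) tethers platelets to a damaged vessel wall by binding the glycoprotein Ib-IX-V complex, whose subunits include the products of Gp1ba, Gp9 and Gp5. Itga2b and Itgb3 encode the alpha IIb and beta 3 chains of the fibrinogen receptor that then binds platelets to each other, and beta 3 also pairs with the alpha v chain. Pf4, platelet factor 4, is a chemokine stored in alpha granules. GATA1 and its relative GATA2 are transcription factors that recognise the letters GATA, and with ETS-family factors such as FLI1 they are known to bind promoters of platelet genes.

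Promoter sequence was taken from RefSeq (build GRCm38.p6), which held 5 of the 7 members. The 250 bases before the start of Gp5 and Pf4 are shown because these genes fell most. Those of Gp9 and Itga2b follow because their products join complexes with genes that moved differently. The search took AGATAA and also AGATAG, with TGATAA and likewise TGATAG, as GATA words, and AGGAAG and separately CGGAAG as ETS words. Capitals mark their matches on either strand, each sequence reading 5′ to 3′ along its gene.
Gp5, chr16:30310782-30311031, minus strand: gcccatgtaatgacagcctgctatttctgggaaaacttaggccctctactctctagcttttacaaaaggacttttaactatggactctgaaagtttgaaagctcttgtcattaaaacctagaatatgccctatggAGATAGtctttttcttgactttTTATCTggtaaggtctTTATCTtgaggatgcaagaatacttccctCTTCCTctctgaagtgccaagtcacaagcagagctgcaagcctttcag
Pf4, chr5:90772185-90772434, plus strand: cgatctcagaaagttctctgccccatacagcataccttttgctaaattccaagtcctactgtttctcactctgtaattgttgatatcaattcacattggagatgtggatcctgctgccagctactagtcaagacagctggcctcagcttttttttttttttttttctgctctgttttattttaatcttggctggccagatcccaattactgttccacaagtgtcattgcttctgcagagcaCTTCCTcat
Gp9, chr6:87777820-87778069, plus strand: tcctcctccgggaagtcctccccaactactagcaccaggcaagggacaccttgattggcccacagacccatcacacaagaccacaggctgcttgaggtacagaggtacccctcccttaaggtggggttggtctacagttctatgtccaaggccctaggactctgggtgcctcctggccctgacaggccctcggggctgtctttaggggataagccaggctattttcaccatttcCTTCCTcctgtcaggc
Itga2b, chr11:102469884-102470133, minus strand: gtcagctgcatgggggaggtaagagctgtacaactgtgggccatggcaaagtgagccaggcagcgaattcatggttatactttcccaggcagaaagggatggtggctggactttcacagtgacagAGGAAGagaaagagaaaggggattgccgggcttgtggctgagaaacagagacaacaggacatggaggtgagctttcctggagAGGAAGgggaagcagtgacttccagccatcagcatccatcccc

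The Gp5 stretch held 3 GATA words, the first of them 115 bases before the start and the last ending 72 bases before it, and 1 ETS word that begins 48 bases before it. Pf4 held 1 ETS word, which begins 9 bases before its start, and a GATA word (AGATAA) in the 50 bases after the start, at positions 37 to 42. Gp9 held 1 ETS word and Itga2b 2, with no GATA word printed for either. The promoter of Gp1ba, whose expression was not analysed, is not shown and held both GATA and ETS words in its 250 bases. No 2 matches overlapped. Among 32851 promoter windows of 250 bases, 26.5% held a GATA word, 39.2% an ETS word and 9.21% both, so these words are common and a match is a description of the letters only. With the 50 bases after the start included, 29.8% held a GATA word. The words were chosen with the members in view.

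Every value below is a deposited log2 value of 1 probe set, the brightest where a gene had several, and a change is a difference of means on that scale. A gene was called higher or lower when its limma p, adjusted over the 12719 genes, was below 0.05. Arrays of 1 time are labelled as biological replicates, with no mention of separate cultures, so the p-values measure the spread between these arrays, which may be technical. Array medians lay between 4.04 and 4.09 and the 40th percentile between 3.20 and 3.35. Arrays of 1 time correlated at 0.995 to 0.998 across probe sets. Gata1 itself, the factor that estradiol activates as a fusion protein, averaged 10.21 ± 0.080 (SD, n = 3) before estradiol and 11.08 ± 0.020 after 30 h. The course between was not a plain rise. Gata1 changed by -0.52 at 3 h (adjusted p = 0.00021), was not called at 7 h or 14 h, and was higher by 0.62 at 21 h (adjusted p = 5.57e-06). The sources used here do not say whether its probe set reads the fusion.

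The members took different courses. At 3 h only Itgb3 and Itga2b were called, and both calls were lost under some of the alternatives given below. Itgb3 rose at each time against 0 h, Gp9 rose from 14 h, Gp5 and Pf4 fell from 7 h, and Itga2b was lower from 3 to 21 h and not called at 30 h. At 30 h versus 0 h, 2 of the 5 tested members were higher, against 36.6% of all tested genes, and 2 were lower, against 33.0%. The share called in each direction was thus near that of all genes, while the sizes ran from 4.13-fold higher to 15.9-fold lower. All 5 passed the F test of any change over time (adjusted p = 0.00151 for Itga2b and lower for the others), as did 74.3% of genes. Each comparison with 0 h uses the same 3 arrays at 0 h.

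**Figure D1:**
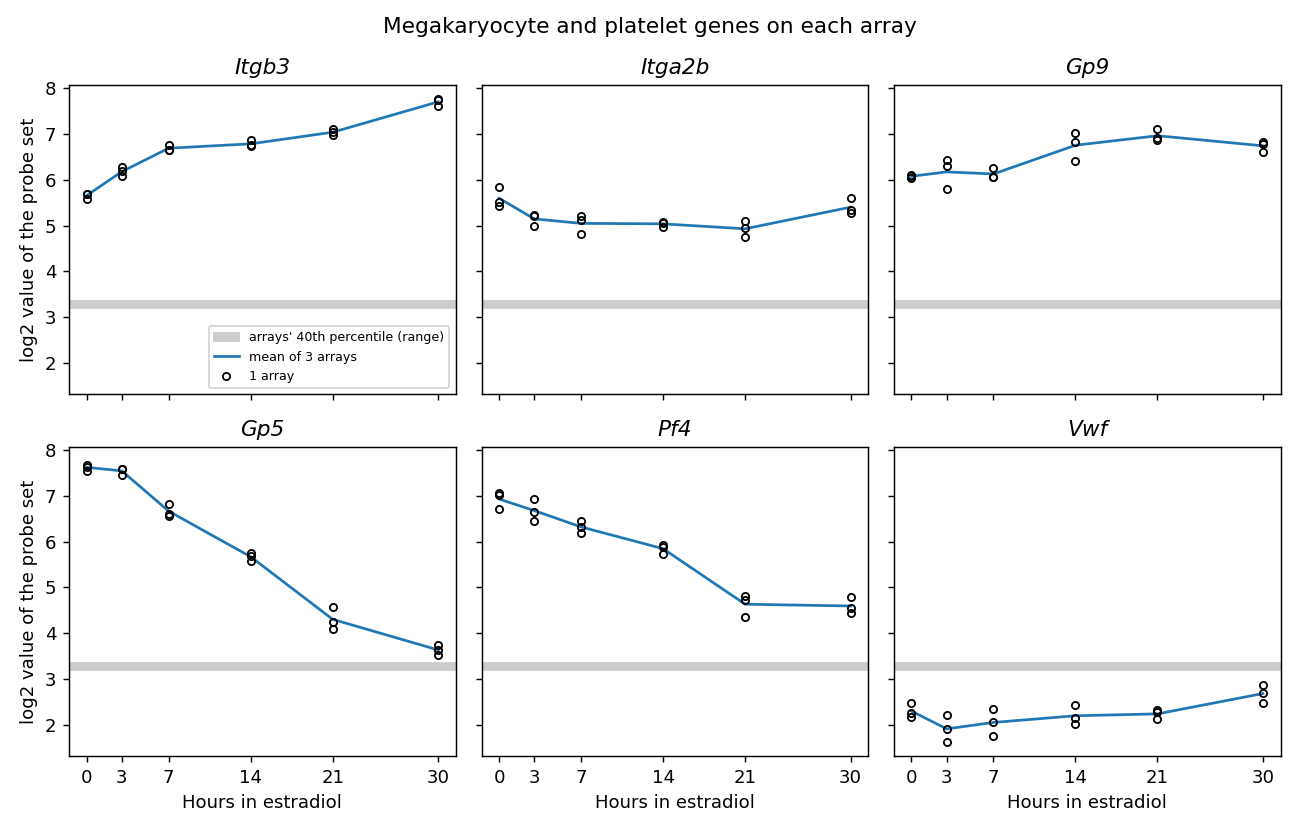
Log2 value of the probe set used for each measured gene (vertical axis) against hours in estradiol (horizontal axis). Circles are single arrays, the line joins the means of 3 arrays, and the grey band is the range of the arrays' 40th percentile. Itgb3 climbs, Gp5 and Pf4 descend, Gp5 to just above the band, and Vwf lies below it on every array.

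Itgb3, the beta 3 integrin chain, gave the steadiest rise. Its probe set read 5.69, 5.59 and 5.69 on the 3 arrays at 0 h, then 6.27, 6.18 and 6.08 at 3 h and 6.65, 6.66 and 6.76 at 7 h. It read 6.75, 6.74 and 6.86 at 14 h, 7.04, 6.97 and 7.10 at 21 h, and 7.76, 7.60 and 7.74 at 30 h. No array of a later time overlapped those at 0 h. The gain was 2.05 at 30 h, or 4.13-fold (95% interval 3.74 to 4.56, limma adjusted p = 2.24e-13). It had reached 25.5% of that gain on the log2 scale at 3 h and 50.5% at 7 h, then changed by 0.09 from 7 h to 14 h (adjusted p = 0.364) and rose by 0.66 from 21 h to 30 h (adjusted p = 1.04e-06). The rise from 14 h to 21 h was small, 0.25 (adjusted p = 0.00830), and was not called with only those arrays fitted (adjusted p = 0.0712). It shrank to 0.04 with scaling on the arrays' hybridisation controls, bacterial and phage RNA added to each sample (adjusted p = 0.934) and to 0.05 with the mean of both Itgb3 probe sets (adjusted p = 0.740). A dimmer Itgb3 probe set, with a mean of 3.40 over all arrays and above the 40th percentile on 12 of 18, changed by 0.34 at 30 h (adjusted p = 0.111 with every probe set tested). At 3 h that dimmer probe set changed by -0.23. With the mean of both probe sets, the change at 3 h was 0.15 (adjusted p = 0.312).

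Itga2b, which encodes the alpha IIb partner of that receptor, did not follow it. Its arrays read 5.52, 5.85 and 5.42 at 0 h, 5.21, 5.001 and 5.22 at 3 h, and 5.21, 5.12 and 4.81 at 7 h. At 14 h they read 5.06, 5.08 and 4.98, at 21 h 4.94, 4.75 and 5.10, and at 30 h 5.59, 5.28 and 5.33. The arrays from 3 h to 21 h all lay below those at 0 h, and the 30 h arrays overlapped them. The change was -0.45 at 3 h (adjusted p = 0.0174) and -0.67 at 21 h (adjusted p = 0.000308), and the step from 21 h to 30 h was a rise of 0.47 (adjusted p = 0.00791). At 30 h the change from 0 h was -0.20 with a 95% interval of -0.47 to 0.08 (adjusted p = 0.188), so a fall of up to 1.39-fold lies within the interval. With that scaling on hybridisation controls, the change was 0.01 at 30 h, and Itga2b was not called at 3 h (adjusted p = 0.417) or 14 h (adjusted p = 0.214). The 3 h call was also lost without replicate 2 of 0 h (adjusted p = 0.0885) and without replicate 2 of 3 h (adjusted p = 0.0805).

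The gap between the chains of this receptor was read within each array. Itgb3 minus Itga2b grew by 2.24 on the log2 scale from 0 h to 30 h, and the lowest difference at 30 h (2.17) lay above the highest at 0 h (0.26). An exact two-sided permutation test over the 3 and 3 arrays gave p = 0.1, the smallest that this design allows, and p = 0.1 after adjustment over the 2 pairs tested. The levels of the chains cannot be set against each other, because each probe set has its own brightness.

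Gp9, glycoprotein IX of the von Willebrand factor receptor, rose late. Its arrays read 6.08, 6.04 and 6.10 at 0 h, 5.79, 6.30 and 6.43 at 3 h, and 6.06, 6.06 and 6.26 at 7 h. They read 6.42, 6.83 and 7.02 at 14 h, 7.10, 6.87 and 6.91 at 21 h, and 6.78, 6.61 and 6.83 at 30 h. The 3 h and 7 h arrays overlapped those at 0 h, and all 9 later arrays lay above those at 0 h. The change was 0.68 at 14 h (adjusted p = 0.00177), 0.89 at 21 h (adjusted p = 0.000110) and 0.66 at 30 h, or 1.59-fold (95% interval 1.26 to 1.99, adjusted p = 0.00114). In order of mean level, 0, 7 and 3 h formed a low set and 30, 14 and 21 h a high one, though the arrays at 3 h and 14 h overlapped. The steps from 3 h to 7 h (-0.05, adjusted p = 0.893), 14 h to 21 h (0.21, adjusted p = 0.332) and 21 h to 30 h (-0.22, adjusted p = 0.280) were not called, while that from 7 h to 14 h was (0.63, adjusted p = 0.00786).

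Gp5, glycoprotein V of the same complex, fell more than any other tested member. Its arrays read 7.63, 7.55 and 7.68 at 0 h and 7.46, 7.58 and 7.59 at 3 h, where they overlapped. They then read 6.82, 6.56 and 6.61 at 7 h, 5.57, 5.74 and 5.69 at 14 h, 4.09, 4.57 and 4.25 at 21 h, and 3.75, 3.52 and 3.64 at 30 h. From 3 h on, each time lay wholly below the one before it. The fall was 15.9-fold at 30 h (log2 -3.99, 95% interval -4.21 to -3.76, adjusted p = 2.15e-14). Of this fall 24.0% had come by 7 h, 49.0% by 14 h and 83.2% by 21 h, on the log2 scale. The 30 h mean of 3.63 was at the 44.5th percentile of its arrays, down from the 76.1st, so the last readings lie near the low end, where folds can be compressed. The last step, 21 h to 30 h, was -0.67 (adjusted p = 0.000102). Control scaling made it -0.48, which was not called (adjusted p = 0.0692).

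Within arrays, Gp9 minus Gp5 grew by 4.65 from 0 h to 30 h, from at most -1.50 at 0 h to at least 3.03 at 30 h. The exact two-sided permutation test again gave p = 0.1, the smallest possible. Gp1ba, the subunit that binds von Willebrand factor, could not be set beside them. Gp1bb, which encodes the remaining chain of the complex, was measured but did not pass the filter, with a highest value of 3.04 on any array.

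Pf4, the alpha granule chemokine, fell from 7 h on and changed little after 21 h. Its arrays read 7.02, 6.71 and 7.05 at 0 h, 6.45, 6.93 and 6.64 at 3 h, and 6.32, 6.45 and 6.19 at 7 h. They read 5.73, 5.92 and 5.89 at 14 h, 4.36, 4.73 and 4.81 at 21 h, and 4.44, 4.78 and 4.56 at 30 h. The 3 h arrays overlapped those at 0 h, and every array from 7 h on lay below them. The fall was 5.05-fold at 30 h (log2 -2.34, 95% interval -2.64 to -2.03, adjusted p = 3.80e-10), and 98.3% of it, on the log2 scale, had come by 21 h. The step from 14 h to 21 h alone was -1.21 (adjusted p = 1.08e-05), and that from 21 h to 30 h was -0.04 (adjusted p = 0.857). The step from 7 h to 14 h, -0.47 (adjusted p = 0.0244), was lost with control scaling (-0.20, adjusted p = 0.471). It was lost too without any 1 of replicates 1 and 2 of 7 h and replicates 1 and 3 of 14 h (adjusted p = 0.0508 to 0.0943). In such bulk samples, fewer cells that express a gene and less RNA per cell cannot be told apart.

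Vwf, the adhesive ligand made by megakaryocytes and endothelial cells, stayed at the bottom of the arrays. It read 2.26, 2.17 and 2.47 at 0 h, between 1.62 and 2.43 on the 12 arrays from 3 h to 21 h, and 2.47, 2.88 and 2.69 at 30 h. It lay below the 40th percentile on all 18 arrays and was not tested, and values at that level carry no order.

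**Figure D2:**
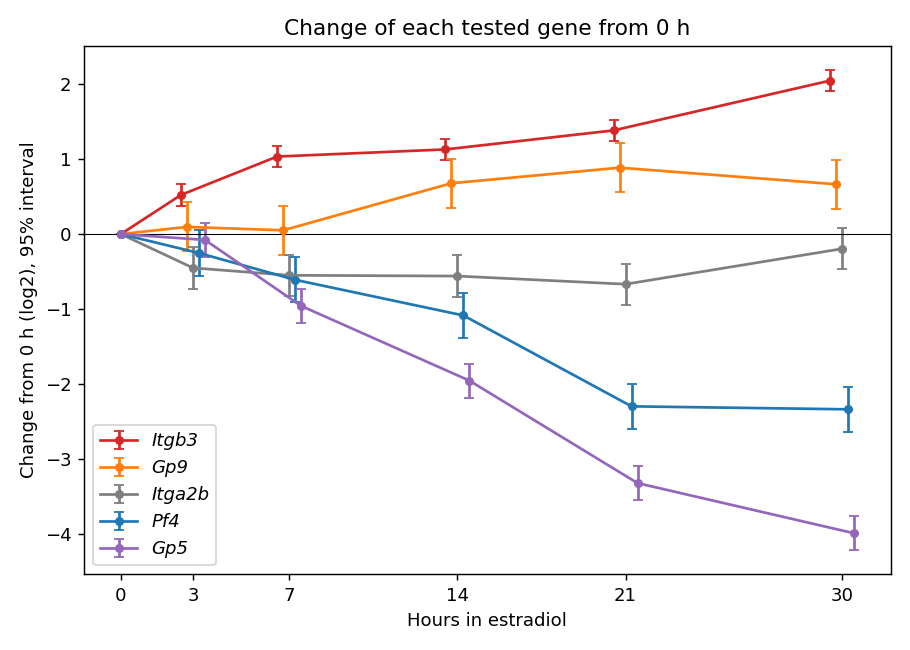
Change from 0 h on the log2 scale (vertical axis) for the 5 tested genes against hours in estradiol (horizontal axis), with 95% intervals from the fit of all 18 arrays. Points are shifted slightly sideways to keep the bars apart. At 30 h the changes range from -3.99 for Gp5 to 2.05 for Itgb3, and the interval of Itga2b covers 0.

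Counted by time, 1 tested member was higher at 3 h than at 0 h (Itgb3, against 11.2% of all genes) and 1 lower (Itga2b, against 14.7%). At 7 h 1 was higher (15.3% of genes) and 3 lower (16.3%), namely Itga2b, Gp5 and Pf4. At 14 h 2 were higher (22.2% of genes) and 3 lower (22.7%), or 2 lower with control scaling, which lost Itga2b. At 21 h 2 were higher and 3 lower (31.4% and 28.6% of genes). The median change of the 5 was -0.08, -0.55, -0.56, -0.67 and -0.20 at 3, 7, 14, 21 and 30 h, beside medians of -0.02, 0.00, 0.02, 0.07 and 0.09 over all genes tested. With so few genes a median says little, and the opposite courses above carry the description.

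Between neighbouring times the calls moved from gene to gene. From 3 h to 7 h Itgb3 was the 1 member higher (9.81% of genes) and Gp5 the 1 lower (5.14%). With control scaling the Itgb3 step of 0.51 became 0.37 and was not called (adjusted p = 0.503). From 7 h to 14 h Gp9 was the 1 higher (11.5%), and Gp5 and Pf4 were the 2 lower (10.8%). From 14 h to 21 h Itgb3 was the 1 higher (15.7%), a call lost under 3 alternatives as given above, and Gp5 and Pf4 again were the 2 lower (17.5%). From 21 h to 30 h Itgb3 and Itga2b were the 2 higher (18%), and Gp5 was the 1 lower (22.5%). Gp5 was thus called lower at each of these 4 steps.

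The nearest courses among all other tested genes were found by the root mean square difference of the 5 changes from 0 h. For Itgb3 they were Pcyt1b (0.07), Tent5c (0.08) and Cbx7 (0.11). For Itga2b they were Tmem144 (0.08), C130071C03Rik (0.08) and Baz2a (0.09), and for Gp9 Tmem101 (0.08), Zfp3 (0.09) and Isca2 (0.09). Pf4 lay nearest to 9130401M01Rik (0.11), Asph (0.16) and Epb41l4a (0.17). Gp5 had no neighbour so close, with Dlg5 at 0.25, Zc3hav1l at 0.27 and Rcbtb2 at 0.30. With 5 values per gene and 12719 genes, close matches arise readily, and they are given as a description.

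Several other platelet genes read at the low end of these arrays. Ppbp, which encodes another CXC chemokine of alpha granules, was at most 1.93 on any array, and Gp6, the collagen receptor, at most 2.44. Clec1b, the podoplanin receptor, was at most 2.60, and P2ry12, the ADP receptor that antiplatelet drugs block, at most 2.66. These 4 were picked with their values in view, and levels of different probe sets cannot be set against each other.

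Of 18 other platelet surface receptors listed, 16 had a probe set and 8 passed the filter. At 30 h 2 were higher and 3 lower, beside 36.6% and 33.0% of all genes, with a median change of -0.03 (0.17 with control scaling, which called 1 lower). P2ry1, the other ADP receptor of platelets, changed by -1.18 (adjusted p = 7.74e-05). The tetraspanin Cd151, which associates with integrins, fell by 0.58 (adjusted p = 0.000628), but was not called with control scaling (-0.38, adjusted p = 0.0851). Of its other 5 probe sets, 3 fell, 1 rose by 0.43 (adjusted p = 0.00928) and 1 was not called. Itgav, the alpha v chain that also pairs with beta 3, rose by 0.63 on its bright probe set (adjusted p = 1.71e-07), and its 4 dim probe sets changed by -0.33 to 0.27, none called. Pear1, a receptor that signals on platelet contact, rose by 0.66 (adjusted p = 0.000704). With the mean of probe sets neither Itgav (0.17, adjusted p = 0.0997) nor Pear1 (0.21, adjusted p = 0.0555) was called.

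Of 16 listed granule and secretion genes, 11 passed the filter. At 30 h 4 rose and 5 fell (median -0.09, or 0.11 with control scaling), beside 36.6% and 33.0% of all genes. Unc13d, a priming factor for granule release, fell by 1.48 (adjusted p = 9.43e-10), and Rab27b, the GTPase of platelet dense granules, by 1.31 (adjusted p = 5.25e-07). Nbeal2, which is needed for alpha granules, fell by 1.25 (adjusted p = 1.66e-05). A dimmer Nbeal2 probe set changed by -0.34 and was not called (adjusted p = 0.0684 with every probe set tested). Snap23, a SNARE protein of membrane fusion found in many cell types, rose by 1.38 (adjusted p = 3.99e-10).

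Of 17 listed genes of integrin activation and platelet signalling, 11 were tested. At 30 h 5 rose and 2 fell, against 36.6% and 33.0% of all genes (median 0.19, or 0.39 with control scaling), and 4 rose under quantile normalization. Gna13, a G protein alpha subunit that acts downstream of thrombin and thromboxane receptors, rose by 0.95 (adjusted p = 5.34e-09), and its other probe sets by 0.73 to 3.02. Tbxas1, thromboxane synthase, rose by 0.81 (adjusted p = 0.000247). Apbb1ip, the adaptor that joins Rap1 to talin at integrins, fell by 1.38 (adjusted p = 2.48e-09), and the signalling adaptor Lcp2 (SLP-76) by 0.82 (adjusted p = 1.32e-06).

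The cytoskeletal list held the largest changes of any platelet list. All 10 of its genes were tested, and 2 rose and 8 fell at 30 h, against 36.6% and 33.0% of all genes (median -0.53). With control scaling 2 rose and 4 fell (median -0.33). Tubb1, the beta tubulin of the platelet marginal band, started at 2.43 ± 0.37 and averaged 4.16 after 3 h, 7.26 after 7 h, 9.13 after 14 h and 10.005 after 21 h, ending at 10.62 ± 0.017. That is a rise of 8.18 (adjusted p = 5.03e-17), from a level where folds are unsure. Flna, filamin A, which anchors the von Willebrand factor receptor to actin, fell from 10.11 ± 0.067 to 5.18 ± 0.24, or 30.3-fold (adjusted p = 4.27e-15). Diaph1, a formin that builds actin filaments, rose by 1.32 (adjusted p = 5.75e-12). Actn1, alpha-actinin 1, changed by -0.94 on a probe set with a 30 h mean of 2.87. Its other dim probe set went the other way, by 0.41 (adjusted p = 0.0289 with every probe set tested), so its direction is unsure.

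**Figure D3:**
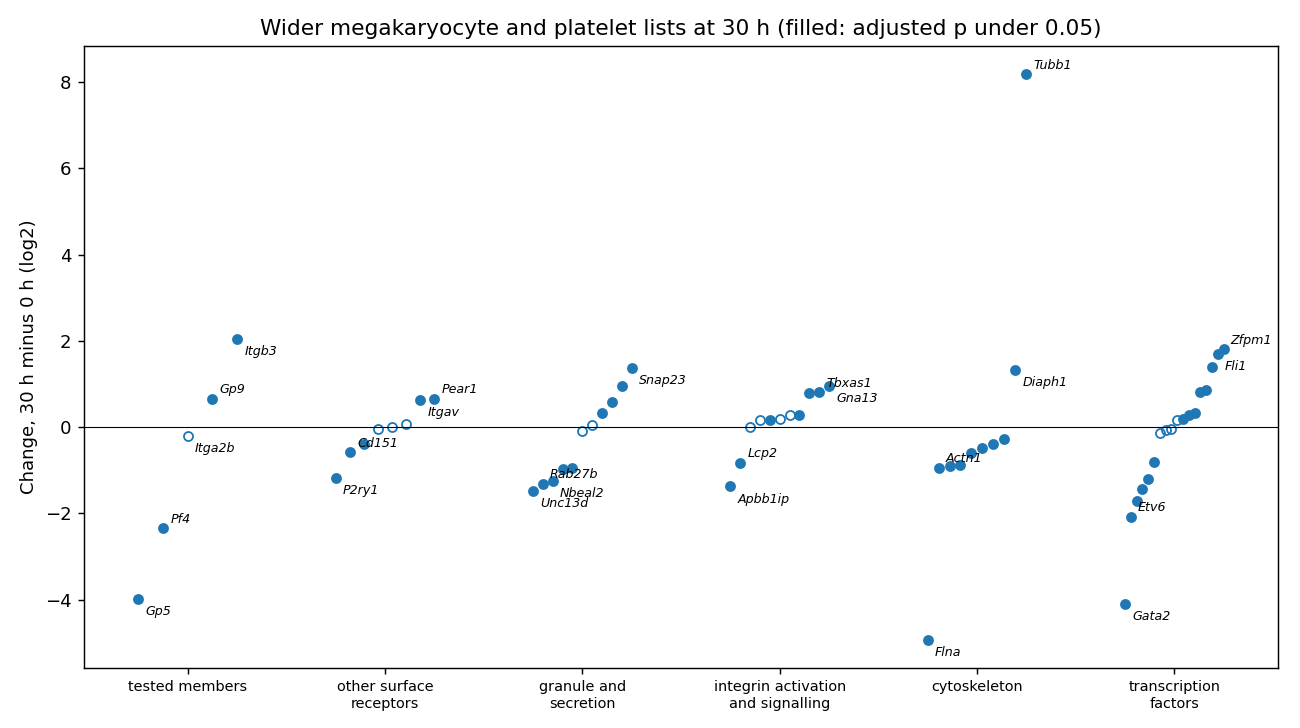
Change on the log2 scale between 0 h and 30 h (vertical axis) for each tested gene of the members and of 5 wider lists (horizontal axis), 1 point per gene, spread sideways in order. Filled points have an adjusted p below 0.05. Each list has points on both sides of 0, and Tubb1 (8.18) and Flna (-4.92) stand farthest out.

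Of 20 listed transcription factors that act in megakaryocytes, 18 were tested. At 30 h 8 were higher and 6 lower (median 0.07), or 7 and 6 with control scaling (median 0.27), shares near the 36.6% and 33.0% of all genes. Gata2, the factor of early progenitors, had already dropped by 1.02 after 3 h and ended 17.2-fold lower, going from 12.29 ± 0.014 to 8.19 ± 0.049 (adjusted p = 3.39e-17). Fli1, the ETS factor that activates many platelet promoters, rose from 7.17 ± 0.16 to 8.11 at 3 h and 8.45 at 7 h, read 8.06 at 21 h, and reached 8.87 ± 0.047 at 30 h, a rise of 1.71 (adjusted p = 1.15e-09). Etv6, an ETS repressor, fell by 2.08 (adjusted p = 4.73e-12). Zfpm1, the GATA cofactor FOG1, rose by 1.81 (adjusted p = 4.27e-11). Runx1, Erg, Rbm15 and Ets1 were not called at 30 h, with changes of -0.04, -0.06, -0.13 and 0.17. All 4 promoters shown carry ETS words, among them that of Gp9, which rose, and those of Gp5 and Pf4, which fell, and no relation between factor and promoter was tested.

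**Figure D4:**
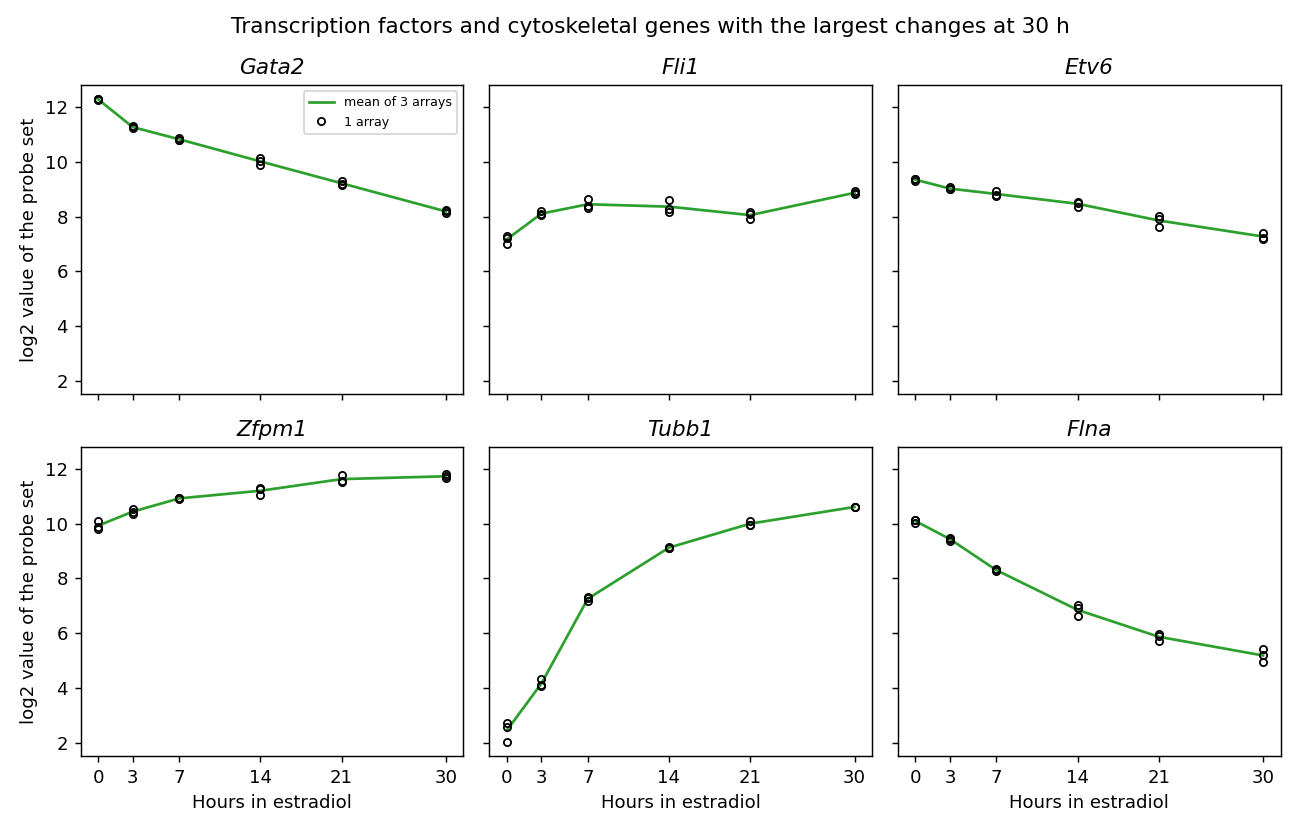
Log2 value of the probe set (vertical axis) against hours in estradiol (horizontal axis) for the 4 transcription factors and 2 cytoskeletal genes described with the largest changes. Circles are single arrays and lines join means of 3 arrays. Gata2, Etv6 and Flna descend, Zfpm1 and Tubb1 climb, and the mean of Fli1 is 8.45 at 7 h, 8.06 at 21 h and highest at 30 h.

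Markers of other cell types moved in the same hours. Each count called at 30 h below stands beside 36.6% of all tested genes higher and 33.0% lower. Over 10 erythroid genes the mean log2 level went from 8.79 to 8.83 on the 0 h arrays to 10.53 to 10.58 at 30 h, with 6 of 10 higher and 0 lower (Alas2 6.49, Slc4a1 6.08, Trim10 2.20 and Klf1 0.80). Their median change was 0.51, and 4 were not called (Epor 0.12, Rhag 0.38, Hba-a2 0.14 and Epb42 0.23). For mast cells and basophils, the mean over 9 genes lay between 4.41 and 4.59 on the 0 h arrays, between 3.95 and 4.06 at 3 h, and between 3.48 and 3.50 at 7 h. It then lay between 3.03 and 3.13 at 14 h, 3.00 and 3.08 at 21 h, and 3.09 and 3.21 at 30 h. At 14 h Cpa3, Ms4a2 and Gzmb averaged 3.06, 2.24 and 2.66, below the 40th percentile, so the mean had little room to fall further. From 14 h on, the timing of this drop therefore cannot be set against that of Gp5 and Pf4. At 3 h 3 of 7 tested genes of this list were lower (14.7% of all genes), and Gp5 and Pf4 were not called. Any part of this drop in the falls of Gp5 and Pf4 was not tested. At 30 h 4 of 7 tested genes were lower (Cpa3, Ms4a2, Gzmb and Hdc) and 1 was higher (Tpsb2). Hdc went from 5.09 to 3.95 and Gzmb from 6.29 to 3.41. A dimmer Hdc probe set changed by 0.05 and was not called (adjusted p = 0.813 with every probe set tested). Cpa3 went from 8.08 to 2.66 and Ms4a2 from 5.57 to 2.14, which is below the 40th percentile, so that the sizes of their falls are unsure. Endothelial markers, which matter for Vwf, had a mean over 10 genes of 3.14 to 3.28 at 0 h and 3.35 to 3.48 at 30 h. Of them 4 were tested and 1 was higher, Egfl7 (0.90), while Tek and Kdr were at most 2.27 and 3.01. Granulocyte and macrophage markers (9 genes) lay between 3.03 and 3.25 at 0 h and between 3.18 and 3.30 at 30 h, with 2 of 4 tested genes higher (Csf1r 0.64 and S100a9 0.56) and 1 lower (Cd68 -0.79), and Mpo and Elane were at most 2.66 and 2.64. Lymphoid markers (8 genes) lay between 2.98 and 3.10 and between 3.11 and 3.20, with Cd3e at most 2.43. Of these, 2 of 5 tested were higher (Cd8a 0.51 and Cd4 0.44), near the share of all genes. Without replicate 3 of 30 h, 2 lymphoid markers were higher and 2 lower. Cd8a, Cd4, Csf1r and S100a9 averaged 3.61, 3.68, 3.48 and 3.44 at 0 h, near the 40th percentile, so their changes are unsure.

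RNA length was read from the log2 difference between the 3′ and the 5′ probe set of a control transcript. For Actb this gap averaged 1.89 before estradiol, then 1.93, 2.06, 1.87, 2.15 and 2.20 after 3, 7, 14, 21 and 30 h, so that it was wider at 7 h than at 14 h. For Gapdh it averaged 1.13 before estradiol, then 1.18, 1.22, 1.19, 1.52 and 1.52. Both gaps widened from 14 h to 21 h, the step with the largest falls of Gp5 and Pf4, though the arrays of these times overlapped for Actb, and the part of RNA length was not tested.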

How the data were processed

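The authors deposited log2 values for 45101 probe sets on 18 Affymetrix arrays. That the scale is log2 was inferred from their range (0.88 to 14.4). Per the labels' protocols, Trizol-extracted total RNA was labelled with biotin. How probes were summarised, corrected and scaled was not given in the sources used here. Near-equal array medians show a common scale, and changes are relative to the middle of all genes.

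Probe sets with 1 annotated gene (34958) were used, and the probe set with the highest mean stood for its gene. Updating symbols through Entrez identifiers (34754 found in RefSeq) changed 0. All arrays were fitted together in R 4.3.3 (limma 3.58.1), each time having its own mean, with 12 residual degrees of freedom. P-values are two-sided and were adjusted over 12719 genes by Benjamini and Hochberg's method. Simulated data tested the code. The number of arrays limits precision.

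Members, lists and alternatives were chosen with earlier results of these data known. Named genes are all members, Gata1, for each list up to 4 called genes ranked by size of change at 30 h, and the 3 nearest courses per member. Cell type lists numbered 5. Vwf values, the low or uncalled genes that are named, and the dimmer probe sets were picked with their values in view. No 2 arrays were identical (0 pairs). Arrays were not paired by replicate number, since same-numbered deviations correlated above 0.1 in 3 of 27 pairs.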

Additional observations from a re-analysis of the deposited data

How the results depend on the processing

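The alternatives for the members were quantile normalization, equal medians, scaling on 18 hybridisation control probe sets, a filter at the 60th percentile or none, averaging of a gene's probe sets, separate tests of each probe set, no _x_at or _s_at probe sets, only the arrays compared, a trended robust variance, the replicate block, a threshold of 0.01, and leaving out each array. None of 1350 member changes reversed a called direction (0), and 17 lost their call (11 under these 12 settings and 6 without 1 array). Control scaling gave 0 members lower at 3 h versus 0 h, 0 higher at 7 h versus 3 h, 1 lower at 14 h versus 7 h, 2 lower in place of 3 at 14 h versus 0 h, 0 higher at 21 h versus 14 h and 0 lower at 30 h versus 21 h. Calls fell over all genes too, with 285 lower at 3 h versus 0 h in place of 1871. At 7 h versus 3 h 127 were higher (1248 in the main fit), and at 14 h versus 7 h 158 were lower (1372). At 21 h versus 14 h 122 were higher (1992), and at 30 h versus 21 h 753 were lower (2864). The mean of probe sets gave 0 higher at 3 h versus 0 h and 0 higher at 21 h versus 14 h, and the compared arrays alone also gave 0 higher in the latter. Over all genes these settings called 1287, 1758 and 1068 higher, in that order. The threshold of 0.01 gave 0 lower at 3 h versus 0 h and 1 lower at 14 h versus 7 h, beside 1120 and 818 of all genes lower. Without 1 array, members lower ranged from 0 to 1 at 3 h versus 0 h and from 1 to 2 at 14 h versus 7 h. Where a call was lost, 1460 and 1691 genes were lower at 3 h versus 0 h, and 1067 to 1151 at 14 h versus 7 h. Control scaling moved the median change of all genes from 0.09 to 0.30 at 30 h versus 0 h and from 0.00 to 0.28 at 14 h versus 7 h. The replicate block left the member counts at 2 higher and 2 lower at 30 h versus 0 h and changed no other member call. Separate tests of each probe set, no filter, the stricter filter and leaving out _x_at or _s_at probe sets changed no member call either. These settings read each member from the same probe set, so its change could not move or reverse, only its adjusted p. The dim Itgb3 probe set on its own changed by 0.34 at 30 h, which was not called (adjusted p = 0.111). For the genes named from other lists, the same alternatives were added after seeing the data. Beside those given above, S100a9 lost its call with only the compared arrays (adjusted p = 0.0797) and without replicate 2 of 0 h or replicate 3 of 30 h (adjusted p = 0.0915 and 0.0871). It also lost its call at the threshold of 0.01 (adjusted p = 0.0142). The cause of these losses was not tested. Signal near the arrays' low end limits Vwf, the dim Itgb3 probe set and the last Gp5 readings.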
